A study of Homo sapiens with 12 samples.

Results

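Saos-2 is an osteosarcoma cell line that lacks p53 protein. The data described here are 6 of the 12 RNA-seq libraries of a study of small molecules directed at mutant p53, chosen by their titles: 3 libraries of p53-null Saos-2 cells (p53-null 1 to 3) and 3 libraries of Saos-2 cells with wild-type p53 (p53-WT 1 to 3). The p53-WT cells are a stable line in which a lentiviral construct puts p53 under doxycycline, and the p53-null cells are the parental line. The labels give 16 h of induction for both groups. The sources used here do not say whether the p53-null cells received doxycycline, whether the p53-WT line is a clone or whether the replicates are separate cultures. A change caused by p53, by doxycycline if only the p53-WT cells received it, by the construct or by the derivation of the line therefore cannot be told apart, and the p-values measure the spread between these libraries only.

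p53 is a transcription factor that binds DNA as a tetramer and activates genes of cell cycle arrest, cell death, DNA repair and metabolism. Among its targets is CDKN1A, which encodes p21, an inhibitor of cyclin-dependent kinases. With these kinases inhibited, the pocket proteins RB1, RBL1 and RBL2 stay bound to E2F factors. The DREAM complex, built on RBL2 or RBL1, then silences genes of DNA replication through E2F sites and genes of mitosis through CHR elements. MDM2, another target, encodes the ubiquitin ligase that degrades p53.

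The change reached most of the transcriptome. Of 14275 genes tested with edgeR's quasi-likelihood test (n = 3 libraries a group), 9489 passed an adjusted p of 0.05 (66.5%), of which 4785 were higher (33.5% of the genes tested) and 4704 lower (33.0%) in p53-WT cells. With TMM scaling the directions were near equal in number, and the higher genes had the larger changes. At more than 2-fold, 2553 genes were higher (17.9%) and 1803 lower (12.6%), at more than 8-fold 680 and 134, and at more than 32-fold 255 and 3. The median log2 fold change was 1.07 among the higher genes and -0.83 among the lower. Scaling to the total count alone gave 4013 genes higher and 5588 lower, and the share of higher genes among those called beyond 2-fold went from 58.6% to 49.6%. Groups did not overlap for 10093 genes (70.7%). Because so many genes were called, the counts given for gene lists below are to be read against these shares of 33.5% and 33.0%.

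**Figure D1:**
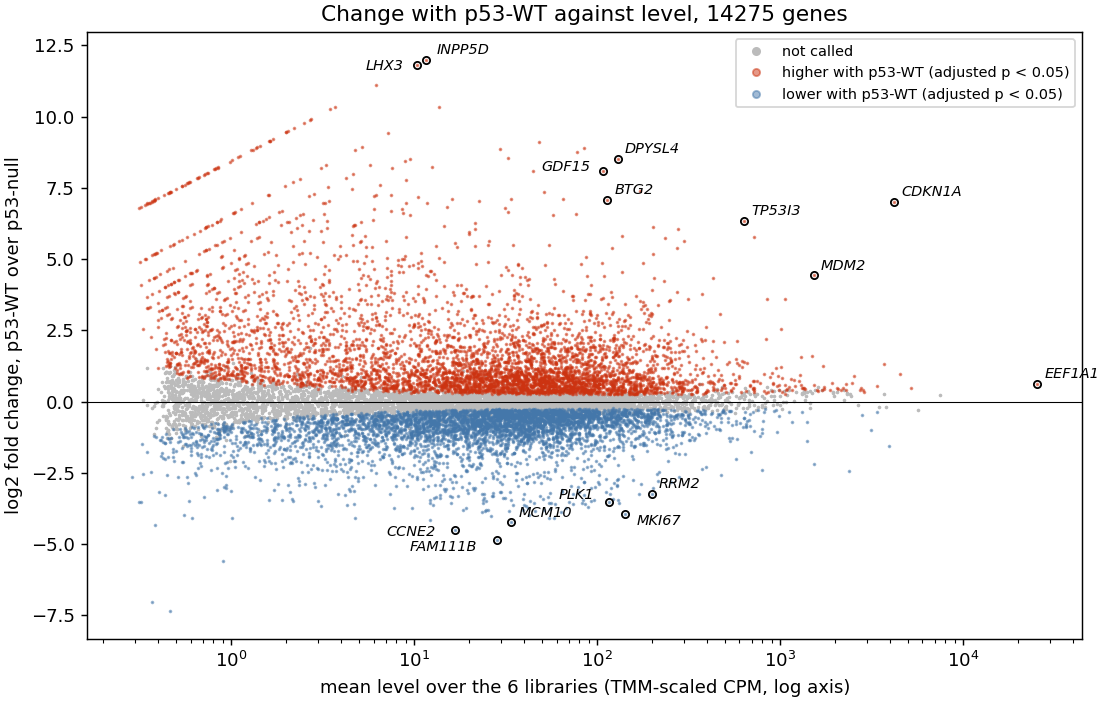
Change of each of the 14275 tested genes against its level. The horizontal axis is the mean CPM over the 6 libraries on a log axis, the vertical axis the log2 fold change of p53-WT over p53-null, and each point is a gene (red, higher and blue, lower at an adjusted p under 0.05; grey, not called; circled genes are named). The upward cloud extends beyond 10 on the log2 scale, the downward one to about -5 for genes above 1 CPM.

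With TMM scaling, direction depended on the level of the gene. Levels are given as CPM, the share of a library's counts per 1e6, with library sizes scaled by edgeR's TMM factors. Of the 1225 genes with a mean under 1 CPM, 34.9% were higher and 15.7% lower. Between 10 and 100 CPM, the class with the most genes (7425), the order turned, with 31.3% higher and 38.1% lower. Above 1000 CPM stood 101 genes, of which 50.5% were higher (51 genes, 9 of them by more than 2-fold) and 10.9% lower (11 genes, 5 by more than 2-fold). These classes were not counted again with total-count scaling, which gave 4013 genes higher and 5588 lower over all levels. Whether the order by level holds under that scaling was not tested. The most abundant transcript in counts was EEF1A1, a translation elongation factor, which held 1.94% to 2.41% of the counts in p53-null and 2.75% to 3.21% in p53-WT libraries and rose by 0.62 on the log2 scale. CDKN1A took 0.00612% to 0.0081% of the counts in p53-null libraries and 0.768% to 0.828% in p53-WT libraries. On the length-corrected TPM scale, CDKN1A went from 45.2 ± 4.54 to 5040 ± 219 TPM (SD, n = 3), and from rank 2749 to rank 17 among 32815 genes.

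**Figure D2:**
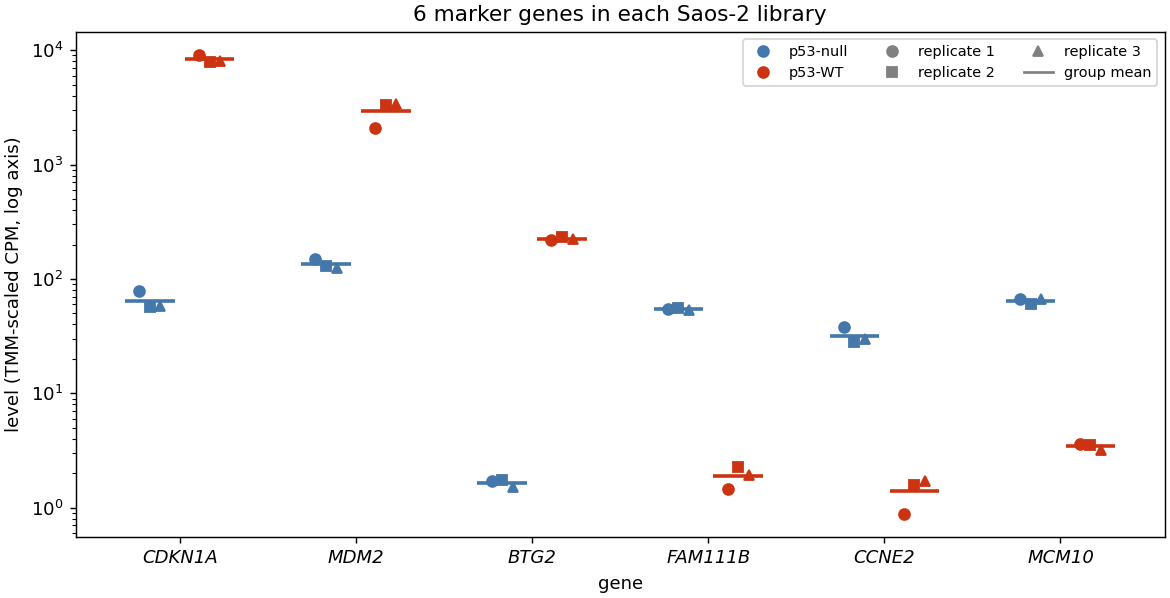
TMM-scaled CPM (log axis) of 6 marker genes in each library. Blue marks are p53-null and red marks p53-WT libraries, the shape gives the replicate number and the bar the group mean. No gene shown has overlapping groups. MDM2, CCNE2, BTG2 and FAM111B are lower in p53-WT 1 than in p53-WT 2 and 3, and CDKN1A and MCM10 are higher.

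The largest rises came from genes that p53-null cells hardly transcribed. In all, 65 tested genes had no count in any p53-null library, and all 65 were higher in p53-WT cells, which their passing the filter on low counts required. Among the 10 largest rises above a mean of 1 CPM, a fold against 0 is a lower bound, set against 3 counts in a library. INPP5D, an inositol phosphatase of blood cells, reached 22.8, 23.6 and 23.4 CPM, at least 169-fold higher. PALMD, which encodes the cytosolic protein palmdelphin, reached 7.18, 7.12 and 7.97 CPM, at least 54-fold higher. TNFRSF14, a receptor of the tumour necrosis factor family, reached 8.68, 5.97 and 6.17 CPM, at least 50.5-fold higher. The rest of these genes were of varied kinds. They were the homeodomain factors LHX3 (at least 150-fold higher) and POU3F1 (at least 36.6-fold), the scaffold protein gene USH1C (at least 39.7-fold), the phosphatase gene DUSP13 (at least 39.5-fold), SUSD2 (at least 32.1-fold) and the small heat shock protein gene CRYAB (at least 29.9-fold). KLHL30 had 1 count over the p53-null libraries and 25.6 to 29.2 CPM in the p53-WT libraries, a ratio of 1803 with a 95% counting interval of 323 to 71257.

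At a mean of 100 CPM or more, the 5 largest rises were DPYSL4, GDF15, RRAD, BTG2 and CDKN1A. DPYSL4, of the dihydropyrimidinase-like family, stood at 1.29, 0.332 and 0.482 CPM in p53-null and at 268, 243 and 265 CPM in p53-WT libraries (log2 fold change 8.52 ± 0.28 SE). GDF15, a secreted stress cytokine of the TGF-beta superfamily, went from 0.921, 0.663 and 0.745 to 248, 194 and 200 CPM (8.09 ± 0.19). RRAD, a small GTPase, went from 2.44, 2.04 and 1.71 to 389, 303 and 330 CPM (7.37 ± 0.18). In all of them each p53-WT library exceeded each p53-null library by more than 100-fold.

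The genes of cell cycle arrest were led by CDKN1A (79.1, 56.9 and 58 CPM against 9039, 7921 and 8047 CPM) and by BTG2, an antiproliferative cofactor of mRNA deadenylation (1.7, 1.75 and 1.53 CPM against 218, 235 and 223 CPM). Their log2 fold changes were 7.01 ± 0.19 and 7.08 ± 0.14, with adjusted p of 6.2e-10 and 3.3e-10 in edgeR. Of the 13 tested genes of this list, 10 were higher and none lower, with a median log2 fold change of 1.64 against -0.01 over all genes tested. SFN, which encodes 14-3-3 sigma and holds cells before mitosis, went from 0.691, 0.569 and 0.395 to 51.1, 35 and 41.1 CPM (6.26). ZNF385A, a p53 cofactor that favours arrest, went from 9.77, 11.5 and 10.9 to 417, 361 and 399 CPM (5.19). The other inhibitors of the CDKN1 family did not follow CDKN1A. CDKN1B (p27) had a log2 fold change of 0.00 ± 0.12 (adjusted p = 1), and CDKN1C (p57) was under 1 CPM in every library. GADD45A was higher by 1.64, whereas its relative GADD45B was at -0.25 (adjusted p = 0.0595) and was called lower in replicates 2 and 3 alone (-0.34, adjusted p = 0.00113), without p53-null 1, without p53-WT 1 and with total-count scaling.

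The feedback regulators of p53 rose selectively. Of 12 tested, 9 were higher and 1 lower (median 1.15). MDM2 stood at 149, 130 and 124 CPM in p53-null and at 2087, 3289 and 3388 CPM in p53-WT libraries, so that p53-WT 1 was the lowest of its group. TP53INP1, a nuclear stress protein that promotes the death-linked phosphorylation of p53, went from 9.26, 8.58 and 8.16 to 333, 529 and 529 CPM (log2 fold change 5.74), with p53-WT 1 again lowest. RPS27L, a ribosomal protein paralogue, went from 31.9, 19 and 20.7 to 312, 236 and 228 CPM (3.44), here with p53-WT 1 highest. MDM4, the partner of MDM2 that masks the activation domain of p53, was at -0.11 (adjusted p = 0.506), and the ubiquitin ligase gene RCHY1 at 0.10 (adjusted p = 0.596). RCHY1 was called higher in replicates 2 and 3 alone (0.37, adjusted p = 6.9e-04) and without p53-WT 1 (0.28, adjusted p = 0.0418). The single fall in the list was TRIM24, another ligase for p53 (-0.45, adjusted p = 0.0158). That call was lost without p53-null 2 (adjusted p = 0.0698) and without p53-null 3 (adjusted p = 0.0633). Of the relatives of p53, TP73 fell by 1.66 on the log2 scale, from 7.92, 12.2 and 11.8 to 3.06, 3.73 and 3.35 CPM, and TP63, at 0, 0.142 and 0 CPM in p53-null and 0.753, 0.299 and 0.529 CPM in p53-WT libraries, did not pass the filter on low counts. TP63 was called higher when no filter was applied.

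Nearly all targets in cell death were higher. Of 20 tested, 19 were higher, 17 of them by more than 2-fold, and the median log2 fold change was 2.42. TP53I3, an oxidoreductase that forms reactive oxygen species, went from 18, 13.6 and 14.6 to 1476, 1132 and 1163 CPM (6.35 ± 0.18, adjusted p = 7.7e-10). BBC3 (PUMA), a BH3-only activator of mitochondrial death, went from 2.53, 2.75 and 2.1 to 34.5, 33.3 and 35.4 CPM (3.80). PIDD1, the scaffold of the caspase-2 platform, went from 12.9, 12.1 and 11.9 to 201, 145 and 154 CPM (3.76). Rises of 2 to 4 on the log2 scale included the death receptor genes FAS (2.65) and TNFRSF10B (2.04), BAX (2.31) and BAK1 (2.19), which permeabilise mitochondria, and APAF1 (3.69), the core of the apoptosome. The initiator caspase genes CASP9 and CASP8 were outside this range, with CASP9 higher by 0.99 and CASP8 at -0.08 (adjusted p = 0.518). The decoy receptor gene TNFRSF10C was higher by 0.71, a call lost in DESeq2 (adjusted p = 0.102), with total-count scaling, without a filter, in replicates 2 and 3 alone and without any single library other than p53-null 3. PMAIP1 (NOXA), also a BH3-only gene, was higher by 0.97, less than BBC3. STEAP3, a ferric reductase, was the exception and fell by 0.95, from 48.1, 52.2 and 56.9 to 29.1, 26.7 and 25.6 CPM.

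In a further list of caspases, the BCL2 family and their inhibitors, 10 of 23 tested genes were higher and 6 lower. BIK, a BH3-only gene, went from 0.875, 0.426 and 0.702 to 18.1, 14.2 and 15.3 CPM (4.56), and CASP6, an executioner caspase, from 17.2, 13.4 and 12.7 to 125, 117 and 112 CPM (3.03). CASP2, the caspase activated by PIDD1, fell by 1.83, and the survival gene BCL2 fell by 1.57, from 8.06, 10.1 and 10.2 to 2.75, 3.48 and 3.3 CPM.

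Targets in DNA repair were divided. Of 14 tested, 9 were higher and 4 lower (median 0.86). RRM2B, the p53-dependent subunit of ribonucleotide reductase, was higher by 2.87, DDB2, the sensor of ultraviolet lesions, by 2.82 and POLH, a translesion polymerase, by 2.77. PRIMPOL, a primase of stalled forks, fell by 1.56, from 32.9, 29 and 27.5 to 9.13, 11.5 and 9.69 CPM, and FANCC, of the Fanconi core complex, fell by 1.30. The subunits of the reductase moved in opposite directions. RRM2B went from 65.2, 59.6 and 54.2 to 337, 479 and 493 CPM, whereas RRM2, the subunit used in S phase, went from 379, 352 and 349 to 34.8, 42.2 and 37.2 CPM.

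Of the 22 tested targets in metabolism and redox control, 21 were higher, 19 by more than 2-fold, and the median of 3.02 was the highest of the target lists. GLS2, the p53-inducible glutaminase, went from 0.921, 0.663 and 0.395 to 48.6, 34.1 and 34.5 CPM (5.88). CYFIP2, of the WAVE complex that nucleates actin, went from 11.5, 12.4 and 11.7 to 615, 555 and 590 CPM (5.63). FDXR, the ferredoxin reductase of mitochondria, went from 12.8, 12.7 and 12.5 to 606, 473 and 516 CPM (5.39). The sestrin genes SESN1 and SESN2, which restrain mTORC1, were higher by 4.40 and 3.11, and TIGAR, which diverts glucose from glycolysis, by 3.08. SCO2, a copper chaperone of cytochrome oxidase, was higher by 0.44 only (adjusted p = 0.0338), a call lost without p53-null 2, p53-null 3, p53-WT 1 or p53-WT 3 and with total-count scaling (0.29, adjusted p = 0.117), and LPIN1, a phosphatidate phosphatase, fell by 0.67.

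Secreted and surface proteins followed the same direction, with 17 of 18 tested genes higher and none lower (median 2.25). SERPINB5 (maspin) had 1 count over the p53-null libraries and 6.07, 6.07 and 6.3 CPM in p53-WT, a ratio of 404 (95% counting interval 72 to 15980). CSF1, the growth factor of macrophages, went from 0.967, 1.04 and 1.23 to 23.3, 21.9 and 23.3 CPM (4.39). HBEGF was at -0.06 (adjusted p = 0.625). These lists of targets were assembled from knowledge of p53, with earlier results of these data known, so that their direction is a description of the libraries.

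**Figure D3:**
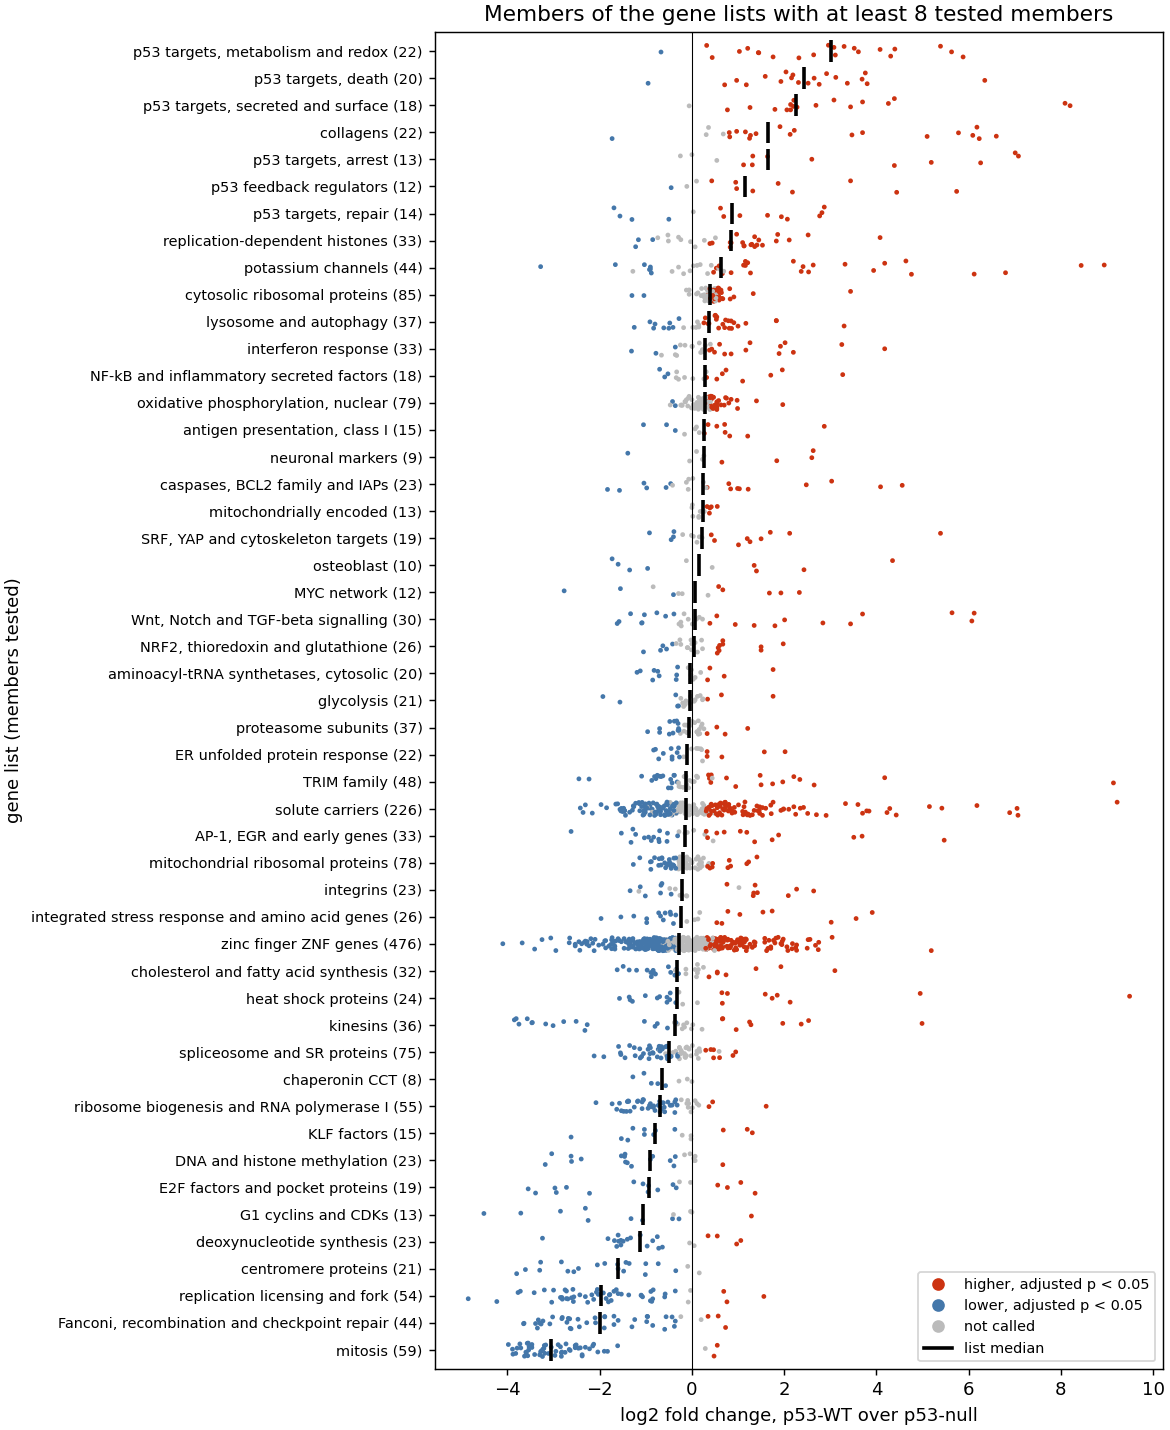
Log2 fold change of p53-WT over p53-null (horizontal axis) for the members of each gene list with at least 8 tested members (vertical axis, members tested in brackets). Red and blue points are members higher and lower at an adjusted p under 0.05, grey points were not called and black bars are list medians. The lists run from mitosis at a median of -3.05 to the targets in metabolism and redox control at 3.02.

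Genes of the cell cycle led the falls. The 10 largest falls above 1 CPM were FAM111B, CCNE2, MCM10, FAM72C, SKA3, ZNF730, SERTAD4, HJURP, ESCO2 and ASPM, and 7 of them act in DNA replication, sister chromatid cohesion or mitosis. FAM111B, a protease linked to replication, stood at 54.8, 55.7 and 53.4 CPM in p53-null and at 1.46, 2.29 and 1.94 CPM in p53-WT libraries (log2 fold change -4.85 ± 0.16). SKA3, of the complex that couples kinetochores to microtubules, went from 118, 107 and 103 to 5.23, 7.52 and 6.39 CPM (-4.10). HJURP, the chaperone that loads the centromeric histone CENPA, went from 107, 100 and 102 to 6.73, 5.97 and 5.77 CPM (-4.07), and CENPA itself from 53, 44.7 and 44.8 to 3.06, 3.58 and 3.57 CPM (-3.80). FAM72C has near-identical copies, among which reads may be divided, so that its value is uncertain.

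At the passage from G1 to S phase, 9 of 13 tested cyclins, kinases and inhibitors were lower and 1 was higher (median -1.07). The falls of CCNE2 and CCNA2, cyclins that activate CDK2, and of the phosphatase gene CDC25A were the deepest. CCNE2 went from 38.1, 28.1 and 29.6 to 0.886, 1.59 and 1.72 CPM (-4.51), CCNA2 from 186, 164 and 148 to 11.3, 13.1 and 13.5 CPM (-3.71) and CDC25A from 81.5, 88 and 89.3 to 11.4, 13.1 and 11.4 CPM (-2.85). CCNE1, the paralogue of CCNE2, was at -1.32 ± 0.13 against -4.51 ± 0.22 for CCNE2 (log2 fold change and SE, difference not tested). CCND1 was at -0.42 (adjusted p = 0.0303) and CCND3 at 0.00 (adjusted p = 0.99). CDKN2B (p15), an inhibitor of CDK4 and CDK6, was the member that rose, by 1.29.

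Of 19 tested genes of the E2F family and its partners, 13 were lower and 4 higher. E2F2 (-3.55), E2F1 (-3.39) and E2F8 (-2.94) fell, and so did MYBL2 (-2.97) and FOXM1 (-2.72), the factors of the late cell cycle programme. E2F3 was at -0.03 (adjusted p = 0.822) and the repressor E2F4 fell by 0.34. Of the pocket proteins, RBL1 fell by 2.22, from 29.7, 32.2 and 28 to 5.4, 6.82 and 7.14 CPM. RBL2 rose from 29.7, 28.8 and 28.3 to 57.5, 65.4 and 58.7 CPM (1.06), and RB1 from 83.4, 88.7 and 81.8 to 148, 248 and 259 CPM (1.37). The pocket proteins that can enter the DREAM complex thus moved in opposite directions.

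Of 54 tested genes of replication licensing and of the fork, 49 were lower, 41 by more than 2-fold, and 3 were higher (median -1.98). MCM10 went from 66.6, 60.7 and 66.4 to 3.59, 3.53 and 3.22 CPM (-4.23), CDC6, which loads the MCM helicase, from 109, 99.7 and 98.7 to 7.97, 8.46 and 6.17 CPM (-3.77), and CLSPN, the adaptor of the checkpoint at the fork, from 65.6, 85.9 and 82.7 to 5.4, 6.47 and 5.9 CPM (-3.72). MCM2, a subunit of the helicase, went from 205, 228 and 241 to 24.4, 19.2 and 19.4 CPM (-3.42). The members that rose were ORC4, of the origin recognition complex (1.56), LIG1, the ligase of Okazaki fragments (0.76), and PCNA, the sliding clamp and a known p53 target (0.69, from 249, 212 and 209 to 374, 359 and 346 CPM). GMNN, the inhibitor of licensing, was at -0.08 (adjusted p = 0.623).

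Genes of deoxynucleotide synthesis fell in 17 of 23 cases and rose in 4 (median -1.12). RRM2 had the largest fall (-3.24), DCK, a salvage kinase, fell by 1.82, and SHMT1 fell by 1.68. NME1, a nucleoside diphosphate kinase, and IMPDH1, of guanine nucleotide synthesis, rose by 0.97 and 1.06. In the Fanconi, recombination and checkpoint list, 39 of 44 genes were lower and 3 higher (median -1.99). XRCC2 (-3.64), of homologous recombination, and BARD1 (-3.39), a ubiquitin ligase subunit at broken DNA, were among the deepest falls. PMS2, of mismatch repair, was among the genes that rose (0.35), a call lost with total-count scaling (0.20, adjusted p = 0.106).

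Mitosis was the list with the lowest median. Of 59 tested genes, 56 were lower, all 56 by more than 2-fold, and the median log2 fold change was -3.05. MKI67, the proliferation antigen Ki-67, which is not a member of the list, went from 193, 312 and 299 to 15.6, 19.5 and 16.9 CPM (-3.95 ± 0.19). PLK1, the kinase of mitotic entry, went from 213, 212 and 217 to 21.2, 18.1 and 16.4 CPM (-3.53 ± 0.12), and CDK1, the kinase that drives it, from 217, 158 and 156 to 22.9, 24.9 and 27.1 CPM (-2.83). ASPM, of the spindle pole, went from 65.2, 93.3 and 79.8 to 2.75, 5.87 and 6.52 CPM (-3.98), PLK4, which duplicates centrioles, fell by 3.89 and the checkpoint kinase gene TTK fell by 3.88. Only 2 genes of the list rose, BUB3 (0.48) and WEE1 (0.55), the kinase that holds CDK1 inactive, and PTTG1 (securin) was at 0.29 (adjusted p = 0.0761). PTTG1 was called higher in DESeq2 (adjusted p = 0.0452), with the replicate block (0.0108), in replicates 2 and 3 alone (1.5e-04), without p53-null 1 (0.0185) and in a fit of all 12 libraries (0.029). Of 21 centromere proteins, 19 were lower and none higher. CENPT was at 0.16 (adjusted p = 0.405) and CENPW at -0.09 (adjusted p = 0.62). Of 36 tested kinesins, 17 were lower and 9 higher. KIF18B (-3.85), KIF14 (-3.81) and KIF15 (-3.75), motors of the spindle and of cytokinesis, fell most, and KIF26B (4.99), KIF17 (2.53) and KIF21B (2.37) rose most.

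Promoter windows were searched for motifs of the cell cycle and of p53. For 10566 of the tested genes, RefSeq windows of 250 bases before to 50 after the transcription start (GRCh38.p14, 15515 windows) were read on both strands for TTTGAA, the core of the CHR element, for CCAAT, bound by NF-Y, for any of 5 E2F octamers (TTTCCCGC, TTTGGCGC, TTTCGCGC, TTCCCGCC and TTGGCGCC, some of which can overlap), and for the decamer of the p53 consensus. Over all 35116 windows of the table the shares with a match were 15.2%, 34.6%, 5.73% and 6.63%, and over the windows of tested genes 10.4%, 34.6%, 8.4% and 5.82%. The CHR core was found in 40.5% of the 131 windows of genes lower by more than 8-fold, in 21.4% at 4 to 8-fold, in 12.7% at 2 to 4-fold and in 9.41% of the 4973 windows of genes not called. CCAAT followed the same order, with 66.4%, 50.8%, 38.3% and 34.1%, and so did the E2F octamers, with 22.9%, 21.4%, 12.5% and 7.44%. The lists parted by the CHR core and the E2F octamers. CCAAT was common in both, in 67.7% of the mitosis windows and 55.2% of the licensing windows. The windows of the mitosis list held the CHR core in 56.9% and an E2F octamer in 12.3%, and those of the licensing list held the CHR core in 3.45% and an E2F octamer in 50%. The p53 decamer was in 10.6% of the windows of genes 4 to 8-fold higher and in 8.32% of those above 8-fold, but also in 9.16% of the windows of genes more than 8-fold lower. Among the p53 target lists its share was 16.7% for metabolism and redox, 12.5% for death, 8.33% for arrest and 5% for secreted and surface proteins. It was 15.7% for cytosolic ribosomal proteins. A match is a stretch of letters and was not tested as a binding site, several windows can belong to the same gene, and p53 also binds outside such windows.

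**Figure D4:**
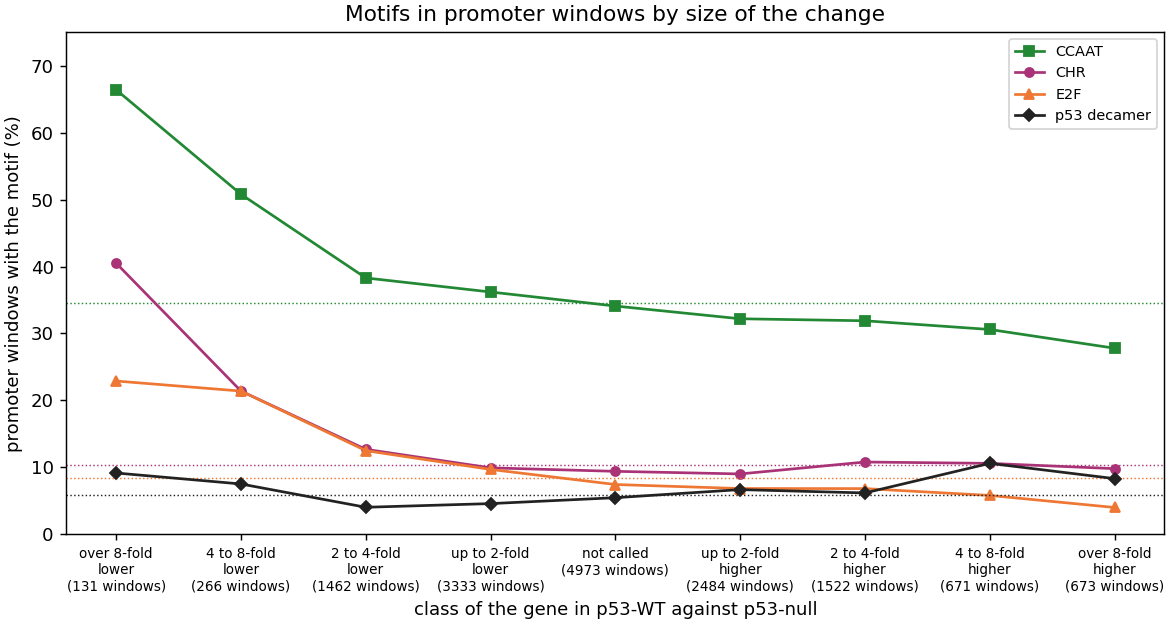
Share of RefSeq promoter windows with a match to each motif (vertical axis, %) by the class of the gene in p53-WT against p53-null cells (horizontal axis, number of windows in brackets; dotted lines, share over all tested genes). The CHR core rises from 9.41% in genes not called to 40.5% in genes lower by more than 8-fold, and CCAAT from 34.1% to 66.4%.

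Upstream stretches of 3 genes that fell show these arrangements. Each is 200 bases long and ends at the base before the start, 5′ to 3′ on the strand of the gene, from RefSeq on GRCh38.p14. Capitals mark the CHR core, CCAAT or an E2F octamer on either strand, so that ATTGG is CCAAT read on the other strand. CDK1 lies at chr10:60778278-60778477 (+), PLK1 at chr16:23678689-23678888 (+) and E2F1 at chr20:33686386-33686585 (-). The stretch of CDK1 holds 2 matches of each kind, with CHR cores that begin 69 and 13 bases before the start. In PLK1 a CCAAT 73 bases before the start is followed by a CHR core at 29. E2F1 has no CHR core but 3 CCAAT matches and an E2F octamer 20 bases before the start.
CDK1: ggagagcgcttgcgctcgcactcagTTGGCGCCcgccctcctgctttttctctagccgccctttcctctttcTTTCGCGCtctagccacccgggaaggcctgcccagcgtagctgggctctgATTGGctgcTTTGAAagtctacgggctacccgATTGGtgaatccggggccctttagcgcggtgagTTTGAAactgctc
PLK1: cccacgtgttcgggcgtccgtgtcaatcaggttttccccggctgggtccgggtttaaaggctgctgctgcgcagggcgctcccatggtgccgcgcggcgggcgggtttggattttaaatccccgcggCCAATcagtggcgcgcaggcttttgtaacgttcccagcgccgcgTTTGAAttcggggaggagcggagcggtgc
E2F1: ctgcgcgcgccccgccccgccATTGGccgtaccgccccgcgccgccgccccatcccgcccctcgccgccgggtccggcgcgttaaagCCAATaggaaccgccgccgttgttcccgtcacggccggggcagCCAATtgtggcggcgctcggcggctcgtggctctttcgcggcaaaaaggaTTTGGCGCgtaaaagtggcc

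A full p53 element is a pair of decamers up to 13 bases apart. Only 10 of the 35116 windows held a perfect pair, and 4 of these belonged to tested genes. Of these 4 genes, 3 were higher in p53-WT cells. PTCHD4, a patched-domain protein gene, went from 0.415, 0.426 and 0.307 to 4.03, 5.68 and 4.58 CPM (log2 fold change 3.62, adjusted p = 3.7e-07). MCC, a negative regulator of the cell cycle, went from 14, 18.1 and 17.4 to 93.3, 112 and 118 CPM (2.71, adjusted p = 2.8e-08). DDB2, given above, was at 2.82, and the exception was DYNC2H1, a dynein of cilia, at 0.01 (adjusted p = 0.971), whose decamers are 12 bases apart. The stretches of PTCHD4, at chr6:48111198-48111397 (-), and of MCC, at chr5:113488454-113488653 (-), are shown with the decamers in capitals. In PTCHD4 they adjoin and end at the start, and in MCC they begin 68 and 51 bases before it with 7 bases between.
PTCHD4: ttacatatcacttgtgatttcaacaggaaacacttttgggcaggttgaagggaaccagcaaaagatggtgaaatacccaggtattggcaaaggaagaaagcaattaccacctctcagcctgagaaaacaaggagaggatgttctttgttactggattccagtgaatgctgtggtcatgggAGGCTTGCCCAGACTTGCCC
MCC: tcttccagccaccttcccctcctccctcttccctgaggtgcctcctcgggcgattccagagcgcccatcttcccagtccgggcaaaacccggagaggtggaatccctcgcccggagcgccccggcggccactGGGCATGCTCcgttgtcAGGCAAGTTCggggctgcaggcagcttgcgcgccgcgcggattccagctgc

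Beyond the cell cycle, the machinery of growth divided between ribosomal proteins and the factors that assemble ribosomes. Of 55 genes of ribosome biogenesis and RNA polymerase I, 42 were lower and 3 higher (median -0.70). TAF1A, of the polymerase I initiation complex, fell by 2.08, NOC3L fell by 1.73, and GNL3 (nucleostemin) fell by 1.63, from 138, 116 and 116 to 41.7, 42.2 and 35.6 CPM. POLR1A, the largest subunit of the polymerase, rose by 1.61, from 89.8, 125 and 133 to 307, 365 and 388 CPM. Of 85 cytosolic ribosomal protein genes, 43 were higher and 2 lower (median 0.40). RPS19 rose most after RPS27L, from 2391, 1762 and 2143 to 6753, 4414 and 4656 CPM (1.33), and the paralogues RPL39L and RPL22L1 fell by 1.30 and 1.04. This count rested on the libraries compared. It was 26 without p53-WT 1, 70 without p53-null 1, 20 without p53-null 2, 21 without p53-null 3 and 79 in replicates 2 and 3 alone. The median was 0.23 without p53-WT 1 and 0.25 with total-count scaling. Ribosomal proteins are members of families with many pseudogenes, and their counts may be divided among copies.

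Genes of RNA and protein handling were lower more often than higher. Of 75 tested genes with names of spliceosome and SR proteins, 68 of them annotated as protein-coding, 40 were lower and 7 higher (median -0.49). HNRNPA0 (-1.91) and HNRNPDL (-1.59) were among the deepest falls. Of the 8 subunits of the CCT chaperonin, which folds actin and tubulin, 5 were lower and none higher, and CCT2 went from 845, 731 and 750 to 325, 321 and 312 CPM (-1.28). Heat shock genes split, with 9 of 24 higher and 12 lower. CRYAB, HSPA6 (from 0.553, 0.379 and 0.57 to 15.8, 13.9 and 17.5 CPM, 4.95) and HSPB1 (from 161, 148 and 168 to 847, 602 and 644 CPM, 2.13) rose, and HSPA14 and HSPA13 fell by 1.36 and 1.34. In the integrated stress response list, 9 of 26 were higher and 13 lower. DDIT4, an inhibitor of mTORC1 that p53 can induce, went from 4.51, 4.5 and 4.12 to 70.1, 62.2 and 64.6 CPM (3.91), and CHAC1, which degrades glutathione, from 5.07, 4.6 and 4.38 to 43.6, 33.3 and 37.4 CPM (3.02).

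Nuclear genes of oxidative phosphorylation were higher in 33 of 79 cases and lower in 2, with a median of 0.28. The count was 18 without p53-null 2, 20 without p53-null 3 and 52 in replicates 2 and 3 alone, where 6 were lower. With total-count scaling 18 were higher and 7 lower (median 0.13), and the median was 0.18 without p53-WT 1. SDHA, the flavoprotein of complex II, rose by 1.40 (from 131, 142 and 143 to 400, 338 and 361 CPM) and NDUFV3 of complex I by 1.97. Of 21 glycolysis genes 3 were higher and 5 lower, and HK2, the first enzyme of the pathway, fell by 1.56. The lower count was 9 without p53-WT 1, 3 without p53-null 2 or p53-WT 2 and 2 without p53-null 3 or p53-WT 3. In replicates 2 and 3 alone, 6 were higher and 10 lower, and with total-count scaling 2 were higher and 10 lower. Of 32 genes of cholesterol and fatty acid synthesis 16 were lower and 7 higher (median -0.32). FADS1, a fatty acid desaturase, fell by 1.49, against rises of TM7SF2 (3.10) and IDI1 (1.93). Lysosome and autophagy genes were higher in 22 and lower in 9 of 37 cases (median 0.37). DRAM1, a lysosomal p53 target, went from 10.6, 10.9 and 10.7 to 104, 107 and 106 CPM (3.30), and ULK1, the kinase that starts autophagy, from 25.6, 31.6 and 33 to 108, 106 and 107 CPM (1.83).

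Immune genes moved in part. In the interferon list 14 of 33 tested genes were higher and 3 lower (median 0.28, and 6 lower with total-count scaling), with ISG15, the ubiquitin-like modifier, rising from 38.1, 31.9 and 37.4 to 424, 284 and 314 CPM (3.25) and TRIM22 from 0.415, 0.332 and 0.307 to 6.51, 7.12 and 5.77 CPM (4.18). TAP1, the peptide transporter of antigen presentation, went from 34.9, 31.7 and 36.3 to 277, 236 and 239 CPM (2.87). Its partner in the heterodimer did not follow, for TAP2 fell by 0.55, from 73.5, 81 and 76.4 to 51.7, 50.6 and 55.1 CPM. The call for TAP2 was lost when each gene identifier was tested by itself (-0.54, adjusted p = 0.214).

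Of 30 tested genes of Wnt, Notch and TGF-beta signalling, 12 were higher, 9 of them by more than 2-fold, and 9 were lower, 6 of them by more than 2-fold. NOTCH3, a Notch receptor, went from 5.39, 5.83 and 6.05 to 402, 368 and 431 CPM (6.12 ± 0.13, adjusted p = 3.3e-10), and the ligand gene JAG2 from 7.23, 8.1 and 8.94 to 564, 503 and 568 CPM (6.07 ± 0.14, adjusted p = 3.3e-10). NKD2, an inhibitor of Wnt signalling, rose by 5.64. LEF1 and AXIN2, genes that Wnt signalling activates, fell by 1.62 and 1.33, and HEY1, which Notch signalling activates, fell by 1.58, from 4.79, 3.89 and 4.47 to 1.42, 1.79 and 1.19 CPM. NOTCH3 and JAG2 thus rose and HEY1 fell, but these are single members of a list with a median of 0.06. Other Notch receptors, ligands and targets of the list are not reported here, and the output of the pathway was not tested. MYC fell by 1.55, from 150, 164 and 172 to 54.1, 57.9 and 53.6 CPM, and MXD4 and MXI1, which compete with MYC for MAX, rose by 1.93 and 1.68. MXD3, of the same family, fell by 2.77. Early response genes were higher in 12 and lower in 15 of 33 cases, and EGR2 (5.47), NR4A1 (3.69) and NR4A3 (3.51) rose while KLF2 (-2.62) and KLF6 (-1.53) fell. Of 15 tested KLF factors 9 were lower and 3 higher.

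Of 44 collagen genes in the table, 22 passed the filter on low counts, and 18 of these were higher, 15 of them by more than 2-fold. With no filter 20 of 42 were higher and 1 lower. Several passed the filter through their p53-WT level and began near 0. COL26A1 went from 0.0461, 0 and 0 to 2.04, 1.84 and 2.2 CPM, COL4A1 from 0.0461, 0 and 0.0877 to 3.81, 2.99 and 4.36 CPM and COL2A1 from 0, 0.0474 and 0.132 to 5.58, 3.39 and 4.58 CPM. COL1A1, the main collagen of bone, was the only member called lower, at 1.24, 1.66 and 1.84 CPM in p53-null and 0.62, 0.398 and 0.397 CPM in p53-WT libraries (-1.73). Of 23 tested integrins, 8 were higher and 7 lower (median -0.22). ACTA2, smooth muscle actin, went from 5.76, 5.5 and 5.66 to 248, 222 and 240 CPM (5.39), while the CCN gene CTGF, a target of YAP, fell by 0.40.

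Large families of the genome set the scale for these lists. Zinc finger ZNF genes were lower in 204 and higher in 106 of 476 cases (median -0.28). ZNF730 (-4.10), ZNF724 (-3.68) and ZNF492 (-3.41) fell most. Solute carriers were balanced, with 85 of 226 higher and 87 lower, and TRIM genes likewise, with 15 of 48 higher and 17 lower. Of 95 potassium channel genes 44 passed the filter, of which 24 were higher and 7 lower. With no filter 26 of 87 were higher and 8 lower. KCNJ12, an inward rectifier, went from 0.645, 0.426 and 0.57 to 53.9, 61.2 and 70.6 CPM (6.80). Of 23 genes of DNA and histone methylation and chromatin structure, 16 were lower and 1 higher (median -0.90). UHRF1, which maintains DNA methylation after replication, went from 172, 215 and 217 to 21.9, 22.5 and 22.3 CPM (-3.18), HMGB2 fell by 3.04 and LMNB1 (lamin B1) fell by 2.61, while EZH1 rose by 0.67. Of 89 replication-dependent histones in the table, 33 passed the filter, 21 were higher and 3 lower (median 0.85). With no filter 21 of 67 were higher and 3 lower (median 0.26). HIST1H2BG went from 1.8, 1.8 and 2.1 to 38.1, 30 and 28.9 CPM (4.08). Histone genes are near-identical copies, so that reads may be divided among them.

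The label of the cells was set against marker lists. Of 22 osteoblast genes 10 passed the filter, with SPP1 (osteopontin) at 13.5 to 17.4 CPM and RUNX2 at 8.48 to 12.1 CPM in p53-null cells. The list members SP7 and SOST were at 0 in all 6 libraries, and ALPL, BGLAP, IBSP and COL1A2 stayed under 1 CPM. In the other 6 libraries of the series SP7 had 1 to 7 counts and SOST 0 to 1. Why a gene stands at 0 here was not tested. GPX1, an enzyme of peroxide removal that most cells express, had 0 to 5 counts in these libraries against 2171 to 3235 in the other 6 libraries of the series, and the p53 target PHLDA3 had 0 to 1 against 2 to 5. With p53-WT, 4 of the 10 were higher, among them SPP1 (1.40) and BMP2 (2.43), and 4 lower, among them RUNX2 (-0.96). Of other cell types, 5 of 14 epithelial, 2 of 14 blood cell, 3 of 10 endothelial and 9 of 16 neuronal markers passed the filter. Of these, 3 epithelial, 1 blood cell, 1 endothelial and 4 neuronal markers were higher, and 1, 0, 2 and 1 were lower. The epithelial genes EPCAM, KRT5 and KRT14, the blood cell genes CD3E, MS4A1 and HBB and the endothelial genes ERG and CDH5 were at or below 0.176 CPM in every library. KRT8, a keratin that many tumour lines express, stood at 194 to 207 CPM in p53-null and at 431 to 568 CPM in p53-WT libraries (1.28), and TUBB3, a neuronal tubulin, fell from 2073, 1934 and 2092 to 926, 682 and 719 CPM (-1.39). In bulk RNA, fewer cells with a transcript and less of it in each cell cannot be told apart.

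Replicate 1 stood apart in both groups. The chi-square over degrees of freedom, which is near 1 for sampling noise alone, was 3.97 between p53-null 2 and 3 and 3.2 between p53-WT 2 and 3. For replicate 1 against the other replicates it was 26.6 and 24.9 in p53-null and 42.1 and 41.7 in p53-WT cells. Few genes deviated widely. Of 13050 genes with at least 1 CPM, 24 deviated by more than 2-fold in p53-null 1 from the mean of the other replicates, and 92 in p53-WT 1. The deviation went with transcript length. Genes with a mean transcript length under 1000 bases were higher in replicate 1 by a median of 0.22 (p53-null) and 0.30 (p53-WT) on the log2 scale, those of 2000 to 4000 bases were at -0.01 and -0.04, and those above 8000 bases were lower, at -0.35 and -0.40. Cytosolic ribosomal proteins were higher in replicate 1 by 0.38 and 0.48. These length classes and the ribosomal proteins deviated in the same direction in both groups, whereas other lists did not, such as the p53 feedback regulators at 0.16 in p53-null and -0.35 in p53-WT. The ratio of p53-WT 1 to p53-null 1 was set against the others.

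A check that does not use replicate 1 for the choice of genes gave a similar picture for the larger changes. In a fit of replicates 2 and 3 alone, 10602 of the 14275 genes were called. Of these, 10012 (94.4%) had the same direction in the ratio of p53-WT 1 to p53-null 1. Of the 4251 genes that changed by more than 2-fold in replicates 2 and 3, 4212 (99.1%) kept their direction in replicate 1, and 3358 (79%) also exceeded 2-fold there. Among the 3641 genes that this fit tested and did not call, the directions were the same in 61.6%. Of the 9489 genes called over all 6 libraries, 9205 (97%) were also called in replicates 2 and 3, all in the same direction. That fit holds replicates 2 and 3, so this overlap was partly set beforehand and is not an independent check. Of the markers, CCNE2 and MDM2 differed most. As log2 ratios of CPM + 0.5, CCNE2 was at -3.77 in replicates 2 and 3 and at -4.80 in replicate 1, and MDM2 at 4.71 and 3.81.

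**Figure D5:**
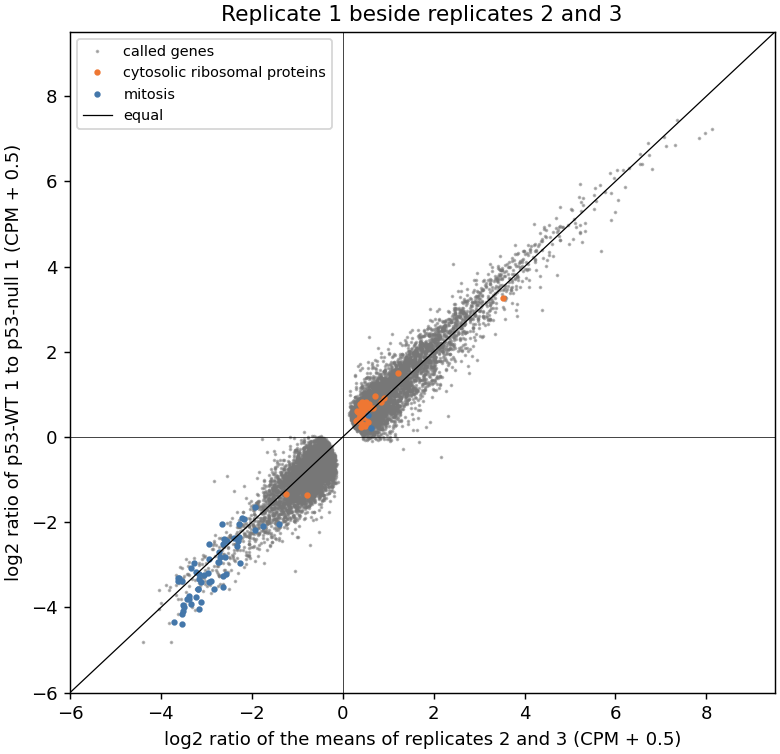
Log2 ratio of p53-WT 1 to p53-null 1 (vertical axis) against the log2 ratio of the means of replicates 2 and 3 (horizontal axis), both as CPM + 0.5, for the 9489 called genes. Grey points are genes, orange cytosolic ribosomal proteins and blue genes of mitosis, and the line marks equal values. The points follow the line over the whole range, with ribosomal proteins between 0 and 1 on both axes apart from RPS27L, RPS19 and 2 paralogues that fell. The genes shown were called with replicate 1 included, so their closeness to the line is partly set by that choice.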

How the data were processed

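RNA was extracted with the RNeasy kit and sequenced by Novogene; library type and strand are not given in the sources used here. The authors quantified reads against GRCh38 with kallisto 0.48.0 and deposited, per library, estimated counts and TPM values of 187626 transcripts. The authors summed the estimated counts per Ensembl gene and deposited them as whole-number counts for 40295 genes, not normalized, which they tested with DESeq2 1.38.3. Counts of the same symbol were added here (1834 symbols, 5643 identifiers), which left 36486 genes. The 8043 identifiers without a symbol held 0.41% of the counts and were kept by identifier. Totals were 19593655 to 21513227 for p53-null and 20709560 to 24629558 for p53-WT libraries, so that 3 counts, the floor used for genes at 0, correspond to 0.137 CPM. Floors and counting intervals cover counting error only.

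The 6 Saos-2 libraries were fitted in edgeR 4.0.16 (R 4.3.3) by group alone (TMM, filterByExpr, quasi-likelihood F test, Benjamini-Hochberg over 14275 genes). A gene was called at an adjusted p under 0.05. The fit was tested on simulated counts. TPM was given for genes whose transcripts add up to the deposited count (83.8% of those tested), and no test used it. Named genes are the 6 markers, the 10 largest changes each way above 1 CPM without overlap, the 5 above 100 CPM and the 3 extremes each way of each of 55 lists. Other list members, and genes with a pair of p53 decamers, were named after their values were seen. MKI67 and EEF1A1 are in none of these groups and were named in addition. Lists and members were chosen with earlier results of these data known. Promoters are RefSeq windows and coordinates are 1-based. Alternatives were other normalizations and filters, DESeq2 1.42.0, each library left out, replicates 2 and 3 alone, a replicate block, all 12 libraries, single identifiers and a stricter threshold. Tables and figures were made with pandas 2.3.3 and matplotlib 3.10.9 (Python 3.11.15). Some genes that this rule or the lists cover are not reported here.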

Additional observations from a re-analysis of the deposited data

How the results depend on the processing

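Leaving out each library in turn gave 4481 to 4908 genes higher and 4118 to 4861 lower in p53-WT cells, and 2595 to 2728 genes more than 2-fold higher and 1773 to 1902 more than 2-fold lower. At an adjusted p under 0.001, 3134 genes were higher and 2601 lower. The other 62 counts of genes over these alternatives stayed within 1.5 times the values reported. Scaling to the total count alone moved the median log2 fold change of all genes by -0.15, to -0.16, and the share of higher genes among those called from 50.4% to 41.8%. It turned the sign of the median of the MYC network, of the NRF2 list and of the Wnt, Notch and TGF-beta list, whose medians were 0.07, 0.04 and 0.06. It left 21 ribosomal protein genes and 18 oxidative phosphorylation genes higher, against 43 and 33. The labels give both groups the replicate numbers 1 to 3. Deviations of same-numbered libraries from their group means correlated at 0.14, 0.09 and 0.07 across genes, under the 0.1 set for pairing in 2 of the 3 pairs, and p53-null 2 correlated more with p53-WT 3 (0.13), so the numbers were not taken to pair the libraries. The replicate 1 libraries did deviate together with transcript length, as described above. With a replicate block 9814 genes were called (4946 higher, 4868 lower), and 78 ribosomal protein genes were higher. Of the values of named genes under all alternatives, none turned its direction as a call, 125 lost their call and 39 gained one. Setting genes without a p53-null count to the 3-count bound, an alternative chosen after seeing the data, moved no list median. A median does not change with the size of members far above it, so this does not measure how far folds depend on the bound. Depth limits genes near 0.137 CPM, whose fitted fold changes depend on the prior count.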

Other observations

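Further lists gave smaller or mixed changes. Of 78 mitochondrial ribosomal proteins, 25 were lower and 10 higher (median log2 fold change -0.20), with MRPL17 at -1.27 and MRPL49 at 1.41. The count of lower members was 38 without p53-WT 1, 39 in replicates 2 and 3 alone (18 higher) and 42 with total-count scaling (6 higher). Of 37 proteasome subunits, 12 were lower and 4 higher (median -0.07), and the lower count was 7 without p53-null 3, 7 without p53-WT 2, 8 without p53-null 2 and 6 without p53-WT 3. The higher count was 2 without p53-null 2, 2 without p53-null 3 and 8 in replicates 2 and 3 alone. All 13 mitochondrially encoded genes were tested, and 5 were higher and none lower (median 0.23). The count was 3 without p53-null 3 and 3 with total-count scaling (median 0.07). Among 26 genes of the NRF2, thioredoxin and glutathione list, 9 were higher and 5 lower, or 3 lower without p53-null 2. With total-count scaling 9 were higher and 9 lower, and in replicates 2 and 3 alone 11 were higher and 8 lower. HMOX1, which degrades heme, went from 50.3, 48 and 55.9 to 217, 189 and 200 CPM (1.98). SLC30A1, a zinc exporter, went from 17.5, 17.2 and 17.4 to 56.6, 117 and 122 CPM (2.51), whereas the metallothionein gene MT1X fell by 1.38. Of a list of p53-linked long noncoding RNAs, only LINC00475 was present in the deposited gene counts. It went from 0.0461, 0 and 0.0438 to 1.33, 0.896 and 1.06 CPM (4.93).

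Changes also differed by chromosome. The median log2 fold change was 0.31 over 337 tested genes of chromosome 22 (46.6% higher, 23.7% lower) and 0.19 over 363 genes of chromosome 20 (39.7% higher, 24.2% lower). Over 754 genes of chromosome 12 it was -0.21 (27.5% higher, 41.2% lower). Genes of a chromosome are not independent, and copy number of the lines was not analysed here.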
